A study of Mus musculus with 6 samples.

Results

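Insulin and insulin-like growth factor (IGF) signalling was examined through 10 listed genes in mouse hearts: the ligand gene Igf1, the receptor genes Insr and Igf1r, the receptor substrates Irs1 and Irs2, the PI3-kinase subunit Pik3r1, the kinases Akt1 and Akt2, and the transcription factors Foxo1 and Foxo3. They were chosen by name from knowledge of the pathway, and all 10 passed the filter on low values, among 11385 genes tested of 36567 in the table. The series has RNA sequencing of 6 hearts, each from a mouse aged 32 weeks. The controls were ApoE-/- littermates, with 3 libraries numbered 1, 2 and 3. Libraries 4, 5 and 6 came from ApoE-/- Timp3-/- mice, called double mutants below. Both groups thus lack apolipoprotein E, a deficiency that raises blood cholesterol and leads to atherosclerosis, and no library came from a mouse with intact Apoe. Timp3 encodes a secreted inhibitor of matrix-degrading and membrane-shedding proteases. The title of the series names heart metabolism, atherosclerosis and mortality.

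As background, insulin and IGF1 bind the related receptor tyrosine kinases encoded by Insr and Igf1r. The active receptors phosphorylate IRS1 and IRS2, which recruit PI3-kinase through its regulatory subunit, and the lipid it makes brings AKT kinases to the membrane. AKT drives glucose uptake and growth, and it phosphorylates FOXO factors, which then leave the nucleus. In heart muscle the pathway is known for its control of glucose use, protein synthesis and cell size. Much of it works by phosphorylation, which messenger RNA does not show.

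Levels are FPKM, a count of sequenced fragments divided by transcript length and by the library's mapped fragments, summed over the transcripts of a gene. Values of single libraries are as deposited. Means ± SD, and statements on whether the 2 genotypes overlap, use FPKM scaled between libraries (n = 3 libraries per genotype). Differences are double mutant minus control on the log2(scaled FPKM + 1) scale, from a limma fit over all 11385 genes, with Benjamini-Hochberg adjustment and a threshold of 0.05.

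Irs2 was the member with the largest difference between genotypes: its level was higher in all 3 double-mutant libraries than in any control library. Foxo1 was lower in all 3. Neither passed the adjustment over all genes. The other 8 genes overlapped between genotypes. The count of members that passed limma at an adjusted p under 0.05 was 0 of 10, where 0.0439% of all tested genes did. At an unadjusted p under 0.05 there were 2 members, 1 higher and 1 lower, where 12.2% of all tested genes passed (6.97% higher and 5.23% lower). Genotypes without overlap were seen for 2 of 10 members and for 19.2% of all tested genes (9.99% higher and 9.22% lower), so these counts lie near those over all genes. Of the 10 differences 5 were above 0, as were 48.8% of those of all tested genes. Their median was 0.04 and their median absolute size 0.24, against -0.0062 and 0.16 over all tested genes. The members also spread more between libraries of 1 genotype, with a median residual SD of 0.27 on the log2 scale against 0.20 over all tested genes, and a range of 0.13 to 0.57.

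**Figure D1:**
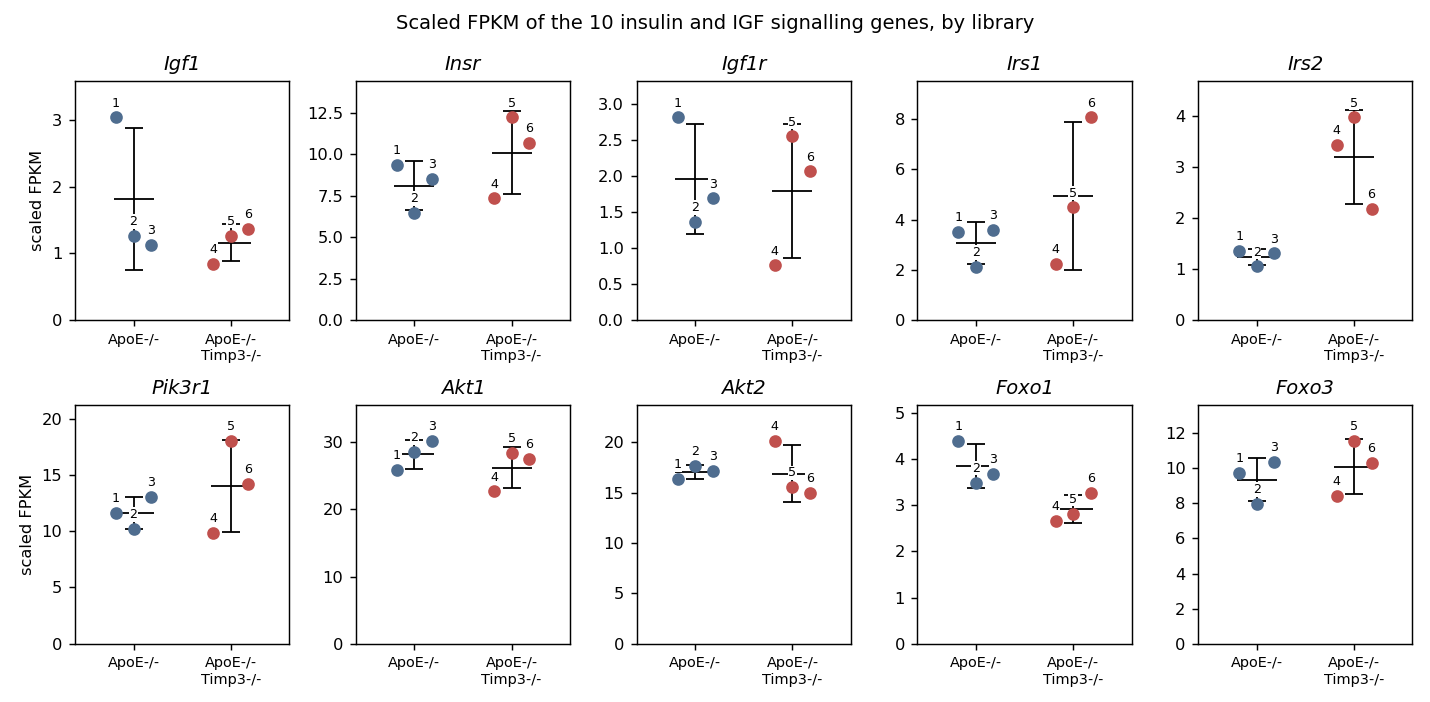
Scaled FPKM of each gene (y axis, starting at 0) in the 3 control libraries (blue, 1 to 3) and the 3 double-mutant libraries (red, 4 to 6), with the mean and SD of each genotype as bars. Irs2 and Foxo1 are the genes whose genotypes do not overlap, and library 4 is the lowest for 5 of the 10 genes.

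Timp3 itself checks the labels. Its level was 52.1, 38.0 and 36.3 FPKM in control libraries 1, 2 and 3 and 20.2, 28.0 and 29.6 FPKM in double-mutant libraries 4, 5 and 6. The double mutants were lower without overlap, with scaled means of 26.7 ± 6.12 against 40.6 ± 3.62 and a log2 difference of -0.61 (limma adjusted p = 0.29), but not at 0. The labels do not say what the mutation takes out of Timp3, so this level checks them only in part. The files' coverage added up to between 654 and 1339 aligned megabases per library. All 7 cardiomyocyte markers were tested, and their summed level was 12795 to 16614 scaled FPKM in controls and 15986 to 21525 in double mutants.

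Libraries also differed in markers of other cells, some across the genotypes and some along them. The 5 atrial markers (Nppa, Myl7, Myl4, Sln and Bmp10, all tested) summed to 1455, 809 and 122 scaled FPKM in control libraries 1, 2 and 3, and to 173, 972 and 1439 in the double-mutant libraries 4, 5 and 6. The sum of library 2 was mostly Nppa (802 FPKM as deposited), with Myl7, Myl4, Sln and Bmp10 at 2.09, 9.87, 0.79 and 0.022 FPKM there. The mean log2 deviation of the 5 markers was above 0 in libraries 1, 5 and 6 and below 0 in libraries 2, 3 and 4. Genotype differences were above 0 for 5 of 5 genes, with a median of 1.70, where 48.8% of all tested genes were above 0. All 5 overlapped between genotypes. The mean of these markers, used below as a covariate, is thus partly aligned with genotype. The 6 adipocyte markers, 5 of them tested, summed to 141 in library 1 against 4.47 and 3.94 in the other controls, and to 1.16, 30.5 and 3.19 in the double mutants. The 7 macrophage markers, all tested, summed to 121 in library 1 and to between 46.5 and 66.2 in the others. Endothelial markers were below 0 for 6 of 6 genes, with a median difference of -0.40, a summed level of 101 to 120 in controls and 73.4 to 91.0 in double mutants. Fibroblast markers were also below 0 for 6 of 6, with a median of -0.34 and summed levels of 229 to 325 and 214 to 265. In none of these lists was a marker at 0 in all 6 libraries. In whole-heart RNA, fewer cells of a type and less RNA per cell cannot be told apart.

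**Figure D2:**
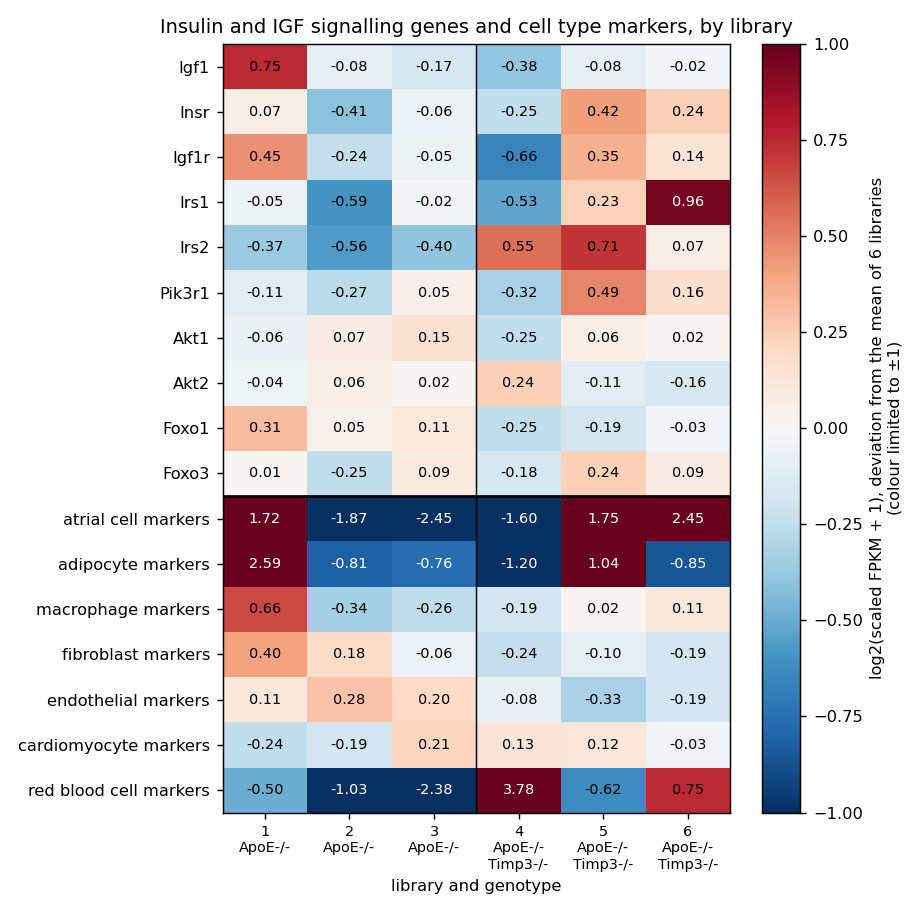
Deviation of each gene (upper rows) and of the mean of each cell type marker list (lower rows) from its own mean over the 6 libraries, on the log2(scaled FPKM + 1) scale, with the value printed in each cell and the colour limited to ±1. Libraries 1, 5 and 6 are above 0 for atrial markers (1.72, 1.75 and 2.45) and libraries 2, 3 and 4 below it, while Irs2 is below 0 in the 3 controls and above 0 in the 3 double mutants.

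Among ligands, Igf1 encodes the growth factor that is made in liver and, locally, in many tissues. Its gene (ENSMUSG00000020053, chr10:87321010-87399792, build NCBIM37) had 3.54, 1.27 and 1.04 FPKM in control libraries 1, 2 and 3 and 0.862, 1.14 and 1.38 in double-mutant libraries 4, 5 and 6. Library 1 stands alone and the other 5 lie together, across genotypes. The scaled means were 1.81 ± 1.06 in controls and 1.16 ± 0.278 in double mutants, which differ by -0.33 on the log2 scale (95% interval -0.94 to 0.29, limma adjusted p = 0.67). Without library 1 the difference was -0.03. Library 1 is also the one richest in adipocyte and macrophage markers, and their part in the Igf1 level was not tested. With the mean of the atrial markers as a covariate, an alternative chosen after seeing the data, the difference was -0.60 (unadjusted p = 0.012, limma adjusted p = 0.22). Of its 9 reference transcripts 2 were above 0 in some library. The stronger, ENSMUST00000095360, carried the whole level in libraries 2, 3, 4 and 6, and had 2.86 and 0.591 FPKM in libraries 1 and 5.

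Both insulin genes, Ins1 and Ins2, were listed at 0 in all 6 libraries. Of 12 ligands and binding proteins 7 were tested, 3 with a difference above 0 and 4 below, and 0 passed limma. At an unadjusted p under 0.05 there were 2 lower, where 5.23% of all tested genes were lower. Genotypes did not overlap for 4 of the 7, against 19.2% of all tested genes, among them Igf2, Igfbp6 and Igfbp7. Igf2, the other IGF ligand, had scaled means of 4.53 ± 1.45 in controls and 7.81 ± 3.12 in double mutants (difference 0.65, adjusted p = 0.42). The binding proteins hold IGFs outside cells. Igfbp6, which prefers IGF2, measured 7.84 ± 1.44 against 5.54 ± 0.166 (difference -0.42, adjusted p = 0.34). Igfbp7, a secreted protein of vessel walls, measured 93.2 ± 29.9 against 62.3 ± 7.04 (difference -0.54, adjusted p = 0.40), beside the lower endothelial markers, whose part was not tested.

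Of the receptors, Insr was the more abundant per length. The gene (ENSMUSG00000005534, chr8:3150922-3279617) had 10.9, 6.49 and 7.83 FPKM in control libraries 1, 2 and 3 and 7.50, 10.9 and 10.8 in double-mutant libraries 4, 5 and 6. Its 3 highest libraries were 1, 5 and 6, which hold both genotypes. Scaled means were 8.10 ± 1.50 and 10.1 ± 2.49, a difference of 0.27 (95% interval -0.22 to 0.76, limma adjusted p = 0.65). With the atrial marker mean as a covariate it was 0.09, and with reference transcripts only 0.57 (adjusted p = 0.76).

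The insulin receptor is made in 2 forms that differ by a short exon of the extracellular part; the form without it also binds IGF2 well. The exon lies at chr8:3181702-3181737 in NCBIM37 and is 36 nt long. Of the 3 reference models of Insr, 1 had FPKM above 0, and that model lacks the exon. The other models were not checked for it. All FPKM with the exon thus stands on transcripts that were assembled from a library's own reads. The sequences below, from GENCODE M21 transcripts, show the joined region of both forms, 5′ to 3′, with the exon in capitals and 20 bases on each side.
Insr with the exon: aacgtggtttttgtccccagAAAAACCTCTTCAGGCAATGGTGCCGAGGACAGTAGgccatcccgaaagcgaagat
Insr without the exon: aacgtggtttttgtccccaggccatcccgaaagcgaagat
Transcripts with the exon had 2.26, 0 and 2.06 FPKM in libraries 1, 2 and 3, and 4.24, 0 and 0 in libraries 4, 5 and 6. They made up 20.7% and 26.3% of Insr in libraries 1 and 3 and 56.5% in library 4. Where no such transcript was assembled, the whole level was listed on models that lack the exon. Reads of either form may be counted there, so a listed 0 does not show that the exon was absent.

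Igf1r (ENSMUSG00000005533, chr7:75097713-75371484) had 3.28, 1.37 and 1.56 FPKM in control libraries 1, 2 and 3 and 0.776, 2.29 and 2.09 in double-mutant libraries 4, 5 and 6. As with Insr, libraries 1, 5 and 6 were the 3 highest. The scaled means, 1.95 ± 0.761 and 1.79 ± 0.926, differed by -0.11 (95% interval -0.82 to 0.59, limma adjusted p = 0.92). The sign turned without library 1 (0.08) or library 4 (0.19), so the data give no direction for this gene. With the atrial marker mean as a covariate it was -0.44 (unadjusted p = 0.056, limma adjusted p = 0.33). Library 4 gave it 5.06 aligned kilobases, the least for any of the 10 genes in any library. Igf2r, which clears IGF2 from the cell surface, measured 9.82 ± 0.698 against 8.41 ± 1.39 (difference -0.21, adjusted p = 0.61). Of 4 receptor genes 3 were tested, with 1 difference above 0 and 2 below. By limma 0 passed, also at an unadjusted p under 0.05, where 12.2% of all tested genes were.

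The ratio of Insr to Igf1r was compared within libraries. Its log2 value, computed from scaled FPKM + 1, was 1.44, 1.66 and 1.82 in libraries 1, 2 and 3 and 2.24, 1.90 and 1.93 in libraries 4, 5 and 6. All 3 double mutants were above all 3 controls, by 0.38 on average. An exact two-sided permutation test gave p = 0.1, the smallest that 3 against 3 libraries allow, and an adjusted p of 0.2 over the 4 ratios tested. The genotypes overlapped with a pseudocount of 0.1 (difference 0.51, exact p = 0.2) and with reference transcripts only (0.52, exact p = 0.7).

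Of the receptor substrates, Irs2 is known as the one most controlled at the level of its messenger RNA, which insulin lowers and fasting raises in liver. The gene (ENSMUSG00000038894, chr8:10986980-11008458) had 1.58, 1.06 and 1.20 FPKM in control libraries 1, 2 and 3 and 3.52, 3.56 and 2.21 in double-mutant libraries 4, 5 and 6. Each double-mutant library was above each control library. Their scaled means were 3.20 ± 0.919 and 1.24 ± 0.160, which makes the log2 difference 0.89 (standard error 0.19, 95% interval 0.44 to 1.33). The limma p was 0.0020 before adjustment and 0.23 after it, so the difference did not pass over all genes. The precision of single libraries is limited at this level: the deposited confidence interval was 1.23 to 1.92 FPKM in library 1, the highest control, and 1.88 to 2.53 in library 6, the lowest double mutant. The aligned bases behind the estimates were 6.70, 13.9 and 9.52 kilobases in libraries 1, 2 and 3 and 33.7, 27.4 and 14.7 in libraries 4, 5 and 6. With the atrial marker mean as a covariate the difference of Irs2 was 0.92 (limma adjusted p = 0.19).

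The transcript models behind Irs2 differed between libraries. The reference model, 4024 nt long, carried FPKM in library 1 alone. In libraries 2 to 6 it was listed at 0, and a longer transcript of 5401, 5234, 6287, 5406 and 5757 nt took its place, reaching 1322, 925, 2263, 1344 and 1278 nt beyond the reference 3′ end. The GENCODE M21 model of Irs2 is 6323 nt long. An FPKM is a mean over the length of its model, so the values of libraries 1 and 4 are means over unlike stretches, and the part of this in the difference was not tested. With reference transcripts alone Irs2 fell under the filter on low values and could not be tested. Its difference ranged from 0.76 to 1.27 over the 13 alternatives that gave a value, with adjusted p between 0.068 and 0.57.

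The Irs2 promoter is shown because insulin response elements and E-boxes near the start of Irs2 are known from liver as places where FOXO1 and the sterol regulator SREBP act. The 250 bases before the transcription start (RefSeq, build GRCm38.p6, chr8:11008930-11009179, minus strand) read 5′ to 3′ as follows, with an E-box (CACGTG) and an insulin response element (TGTTTTG, the reverse strand of CAAAACA) in capitals.
Irs2 promoter: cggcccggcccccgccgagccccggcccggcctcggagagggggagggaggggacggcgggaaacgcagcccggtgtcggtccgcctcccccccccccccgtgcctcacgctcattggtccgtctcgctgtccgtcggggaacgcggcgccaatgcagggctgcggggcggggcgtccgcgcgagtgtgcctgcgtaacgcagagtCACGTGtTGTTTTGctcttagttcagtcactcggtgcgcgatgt
The first base of the E-box lies 44 bases before the start and that of the insulin response element 37. Irs1 and Irs2 are the members that hold these letters, each holding both. In the Irs1 promoter (chr1:82291440-82291689, minus strand) the E-box begins 115 bases before the start, and insulin response elements begin at 111, overlapping the E-box, and at 32. On either strand, CAAAACA was found in 5.56% and CACGTG in 6.02% of 32851 mouse promoters of this length. The FOXO core GTAAACA, was in 3.17% of them and, among the members, in a promoter of Akt1 alone. These are matches of letters and not measured binding sites.

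Irs1, a main substrate of the insulin receptor in muscle, spread more between libraries of 1 genotype than any other member. The gene (ENSMUSG00000055980, chr1:82229676-82287991) had 4.11, 2.12 and 3.32 FPKM in control libraries 1, 2 and 3 and 2.29, 4.02 and 8.16 in double-mutant libraries 4, 5 and 6. Library 6 stands apart, and library 4 lies within the control range. Scaled means were 3.08 ± 0.839 and 4.93 ± 2.94, a difference of 0.44 (95% interval -0.42 to 1.29, limma adjusted p = 0.68).

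In library 6, 63.4% of the Irs1 level came from 1 assembled transcript of 5.17 FPKM, which was not listed in the others. The 3′ end of Irs1 is overlapped on the opposite strand by Gm9747, which had 8.24, 10.3 and 8.23 FPKM in libraries 1, 2 and 3 and 9.74, 9.29 and 4.73 in libraries 4, 5 and 6, lowest where Irs1 was highest. No source used here says whether the counting used strand, so reads of the pair cannot be told apart. When transcripts of both strands were averaged over the Irs1 exons, a measure chosen after seeing the data, the levels were 7.16, 5.86 and 6.45 in controls and 5.65, 7.68 and 6.99 in double mutants. On that measure library 6 no longer stood apart, and the difference was 0.11. It was 0.13 with the atrial marker mean as a covariate and 0.027 with reference transcripts only. The log2 ratio of Irs1 to Irs2 was 0.94, 0.60 and 1.00 in libraries 1, 2 and 3 and -0.45, 0.14 and 1.51 in libraries 4, 5 and 6, overlapping between genotypes (difference -0.45, exact permutation p = 0.6, adjusted p = 0.8).

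Of 11 adaptors at the receptors 8 were tested, 5 with differences above 0 and 3 below. By limma 0 passed, and Irs2 was the only one at an unadjusted p under 0.05, where 12.2% of all tested genes were. Grb2, which links receptors to the Ras pathway, measured 14.8 ± 1.44 in controls and 18.5 ± 2.51 in double mutants without overlap (difference 0.31, adjusted p = 0.44). Shc1, another adaptor to Ras, measured 4.66 ± 0.573 against 4.04 ± 0.252, and Grb14, an inhibitor that binds the active insulin receptor, 49.3 ± 9.71 against 57.3 ± 7.50, both with overlap.

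Pik3r1 encodes the main regulatory subunit of PI3-kinase, in a long form (p85) and shorter forms that lack its front part. The gene (ENSMUSG00000041417, chr13:102450716-102538172) had 13.6, 10.3 and 12.0 FPKM in control libraries 1, 2 and 3 and 10.1, 16.2 and 14.4 in double-mutant libraries 4, 5 and 6. Library 4 was the lowest of all 6 and library 5 the highest, so the double mutants enclose the controls. Scaled means were 11.6 ± 1.41 and 14.0 ± 4.08, a difference of 0.22 (95% interval -0.28 to 0.72, limma adjusted p = 0.73). The difference was 0.10 with the atrial marker mean as a covariate and 0.48 with reference transcripts only (adjusted p = 0.71).

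The start of the coding sequence tells the forms of Pik3r1 apart. The first 60 coding bases of each reference transcript (GENCODE M21) are shown with the start codon in capitals; the coding sequences are 2172 and 1362 nt long.
Pik3r1 long form: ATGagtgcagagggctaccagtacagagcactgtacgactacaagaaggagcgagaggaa
Pik3r1 short form: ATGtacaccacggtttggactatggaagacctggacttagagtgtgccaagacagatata
The long form had 13.6, 5.37 and 8.23 FPKM in libraries 1, 2 and 3 and 4.54, 14.0 and 14.4 in libraries 4, 5 and 6. Short forms, here all other transcripts of the gene, had 0, 4.94 and 3.80 in libraries 1, 2 and 3 and 5.56, 2.16 and 0 in libraries 4, 5 and 6. In library 2 the short form was an assembled transcript of 13 exons. In libraries 3, 4 and 5 it was the reference short form of 10 exons, so unlike models are counted together. Short forms thus made up between 31.6% and 55.0% of Pik3r1 in libraries 2, 3 and 4 and between 0% and 13.4% in libraries 1, 5 and 6. Libraries 1, 5 and 6 are also those where the mean deviation of the atrial markers was above 0, and both sets of libraries hold both genotypes. The part of atrial cells or of genotype in this split was not tested. The forms share most exons, so an FPKM of 0 for a form can be a failed estimate.

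Other PI3-kinase subunits were lower per length. Of 6 subunit genes, Pik3r1 among them, 5 were tested. Pik3r1 was the 1 with a difference above 0, and the other 4 were below, where 48.8% of all tested genes were above 0. By limma 0 passed, also at an unadjusted p under 0.05, where 12.2% of all tested genes were. Pik3r3, another regulatory subunit, measured 1.88 ± 0.191 in controls and 1.39 ± 0.0746 in double mutants without overlap (difference -0.27, adjusted p = 0.45). The catalytic subunits overlapped: Pik3cb measured 2.15 ± 0.186 against 1.91 ± 0.333, and Pik3ca 5.49 ± 0.823 against 5.03 ± 0.934.

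**Figure D3:**
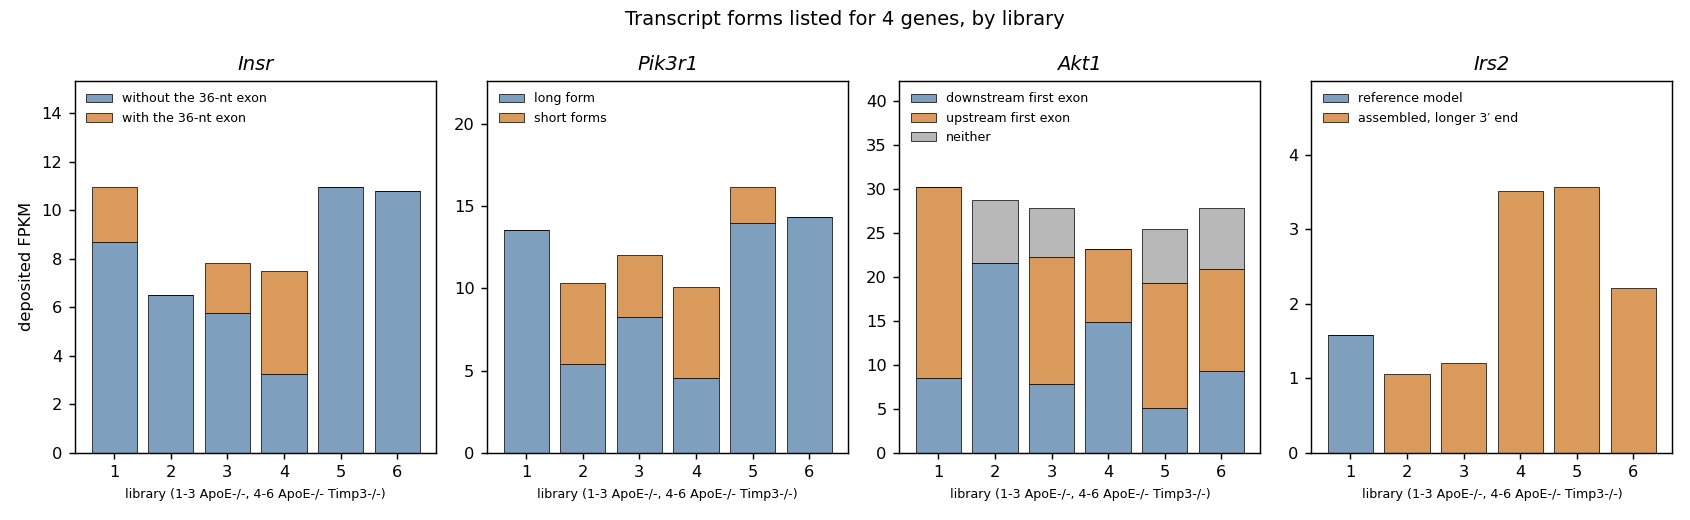
Deposited FPKM of each transcript form (stacked bars, y axis from 0) in libraries 1 to 6 for Insr, Pik3r1, Akt1 and Irs2. Short Pik3r1 forms are listed in libraries 2, 3, 4 and 5, the 36-nt Insr exon in libraries 1, 3 and 4, and Irs2 stands on the reference model in library 1 and on assembled models in libraries 2 to 6.

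Akt1 was the most abundant of the 10 genes. AKT1 is the kinase most tied to growth and survival, and AKT2 the one most tied to glucose uptake. Akt1 (ENSMUSG00000001729, chr12:113892032-113913095) had 30.2, 28.8 and 27.8 FPKM in control libraries 1, 2 and 3 and 23.2, 25.5 and 27.8 in double-mutant libraries 4, 5 and 6. Once scaled, the genotypes overlapped, at 28.2 ± 2.17 and 26.2 ± 3.06, with a difference of -0.11 (95% interval -0.42 to 0.20, limma adjusted p = 0.79). On the measure averaged over its exons they did not overlap, at 16.7 ± 0.484 and 15.3 ± 0.547, yet the difference was of like size (-0.12, adjusted p = 0.65).

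Most of the Akt1 level came from transcripts that begin at 1 of 2 first exons. Those from the upstream exon (chr12:113912933-113913095; the gene is on the minus strand) had 21.7, 0 and 14.4 FPKM in libraries 1, 2 and 3 and 8.32, 14.2 and 11.6 in libraries 4, 5 and 6. Those from the downstream exon (chr12:113912211-113912487) had 8.51, 21.6 and 7.86 FPKM in controls and 14.9, 5.12 and 9.26 in double mutants. Library 2, with no upstream transcript, was the highest for the downstream one, and the sum varied less than either part. A shorter reference transcript, ENSMUST00000128300, holds neither exon and had 0, 7.19 and 5.55 FPKM in controls and 0, 6.09 and 6.90 in double mutants. All 3 kinds of transcript were listed in both genotypes.

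Akt2 (ENSMUSG00000004056, chr7:28376571-28425845) had 19.1, 17.8 and 15.8 FPKM in control libraries 1, 2 and 3 and 20.6, 14.0 and 15.2 in double-mutant libraries 4, 5 and 6. Scaled means were 17.1 ± 0.662 and 16.9 ± 2.81, a difference of -0.03 (95% interval -0.35 to 0.30, limma adjusted p = 0.96). Controls lay close together, with library 4 above and libraries 5 and 6 below them.

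The level of Akt2 is uncertain because reads could be split between it and a near copy, which was not tested. The processed pseudogene Akt2-ps (chr11:16414536-16415984, a single exon of 1449 nt) is 98.6% identical to the Akt2 transcript, with 20 differences, and runs across 12 exon joins of Akt2. An 80-base stretch of both, from GENCODE M21, shows how few bases can place a read, with the 1 differing base in capitals.
Akt2: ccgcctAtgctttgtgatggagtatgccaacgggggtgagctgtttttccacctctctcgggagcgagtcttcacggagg
Akt2-ps: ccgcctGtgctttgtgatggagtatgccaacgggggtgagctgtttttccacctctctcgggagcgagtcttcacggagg
Akt2-ps had 37.1, 26.9 and 26.9 FPKM in libraries 1, 2 and 3 and 33.2, 27.4 and 32.2 in libraries 4, 5 and 6, above Akt2 in every library. Its scaled means, 29.2 ± 2.55 and 31.6 ± 0.977, overlapped between genotypes (difference 0.11, limma adjusted p = 0.75). With reference transcripts alone the difference of Akt2 was 0.44, so its sign depends on how transcripts were summed. The log2 ratio of Akt1 to Akt2 was 0.69 ± 0.0772 in controls and 0.61 ± 0.384 in double mutants (difference -0.08, exact permutation p = 1).

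Of 8 genes for AKT kinases and their activators all were tested, 1 with a difference above 0 and 7 below, where 48.8% of all tested genes were above 0. By limma 0 passed, also at an unadjusted p under 0.05, where 12.2% of all tested genes were. In a list this short a count of 0 says little. Mtor, the kinase at the core of both mTOR complexes, measured 4.18 ± 0.269 in controls and 3.22 ± 0.587 in double mutants without overlap (difference -0.30, adjusted p = 0.45). Mlst8, a subunit of both complexes, measured 1.80 ± 0.217 against 1.62 ± 0.284 with overlap.

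Foxo1 is a transcription factor that AKT keeps out of the nucleus, and in liver it raises Irs2. The gene (ENSMUSG00000044167, chr3:52072259-52154031) had 5.12, 3.51 and 3.39 FPKM in control libraries 1, 2 and 3 and 2.73, 2.53 and 3.30 in double-mutant libraries 4, 5 and 6. All 3 double mutants were below all 3 controls, though as deposited library 6 lay just under library 3. Scaled means were 3.85 ± 0.471 and 2.92 ± 0.312, which makes the log2 difference -0.31 (standard error 0.13, 95% interval -0.61 to -0.01). The limma p was 0.046 before adjustment and 0.40 after it. Its single reference transcript carried the whole level in every library. The difference was -0.39 with the atrial marker mean as a covariate (adjusted p = 0.23), and over 15 alternatives it lay between -0.39 and -0.23, with adjusted p between 0.22 and 0.67. Foxo1 is also expressed in endothelium, whose markers were lower in the double mutants as given above, and their part was not tested.

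Foxo3, its relative, was more abundant per length. The gene (ENSMUSG00000048756, chr10:41901647-41996561) had 11.4, 8.03 and 9.55 FPKM in control libraries 1, 2 and 3 and 8.62, 10.4 and 10.4 in double-mutant libraries 4, 5 and 6. The genotypes overlapped, at 9.35 ± 1.24 and 10.1 ± 1.58, with a difference of 0.10 (95% interval -0.27 to 0.46, limma adjusted p = 0.84). The log2 ratio of Foxo1 to Foxo3 was -1.0, -1.0 and -1.28 in libraries 1, 2 and 3 and -1.36, -1.72 and -1.41 in libraries 4, 5 and 6. It was lower in all 3 double mutants, by -0.40 on average, with an exact permutation p of 0.1, the smallest possible here, and an adjusted p of 0.2. With reference transcripts only the ratio differed by -0.23 and the genotypes overlapped (exact permutation p = 0.6). That setting leaves out 50.0% of the Foxo3 level in library 1 and 49.5% in library 4. These parts stood on assembled transcripts of 6851 and 6866 nt, where the reference one has 6848 nt, and their role was not tested. Foxo4 measured 9.54 ± 0.716 against 8.53 ± 0.706 with overlap. Of 4 FOXO genes 3 were tested, 1 above 0 and 2 below, and by limma 0 passed. Foxo1 alone was at an unadjusted p under 0.05, where 12.2% of all tested genes were.

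**Figure D4:**
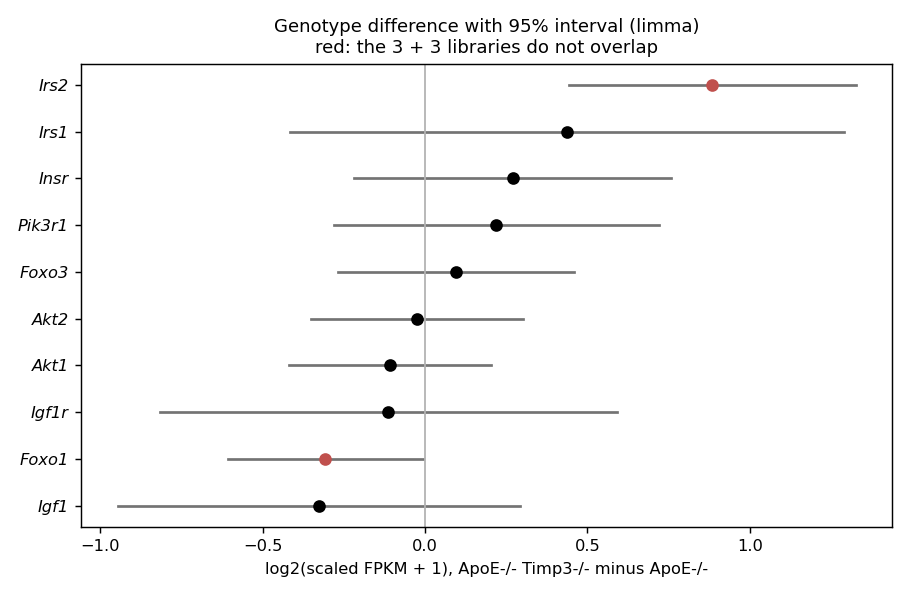
Genotype difference of each gene (x axis, log2(scaled FPKM + 1), double mutant minus control) with its 95% interval from limma. The interval of Irs2 (0.44 to 1.33) and that of Foxo1 (-0.61 to -0.01) exclude 0 before adjustment, and the other 8 include it.

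Single reference transcripts were tested in the same way over 12692 transcripts. From 8 of the 10 genes 12 transcripts were tested, and by limma 0 passed, where 0.134% of all transcripts did. At an unadjusted p under 0.05 there were 0, against 8.38% of all transcripts. Only the Foxo1 transcript was without overlap, where 15.6% of all transcripts were. Its difference was -0.33 (adjusted p = 0.63). Irs2 and Igf1r had no reference transcript with a mean FPKM of at least 1.

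Ordered by mean scaled FPKM over the 6 libraries, Akt1 (27.2) stood above Akt2 (17.0), Pik3r1 (12.8), Foxo3 (9.72), Insr (9.09), Irs1 (4.00), Foxo1 (3.38), Irs2 (2.22), Igf1r (1.87) and Igf1 (1.48). The rank of Akt2 depends on how its transcripts were summed. Averaged over its exons it had 8.27, 7.42 and 6.99 in controls and 8.89, 6.30 and 6.91 in double mutants, where Pik3r1 had 12.7, 8.88 and 10.7 and 8.63, 14.8 and 13.4. Neighbours in this order were compared within libraries by an exact two-sided sign-flip permutation test. Akt1 was above Akt2, Pik3r1 above Foxo3 and Insr above Irs1 in 6 of 6 libraries, each with an exact p of 0.03125, the smallest 6 libraries allow, and an adjusted p of 0.094 over the 9 pairs. For the other 6 pairs p lay between 0.094 and 0.75, and none of the 9 passed 0.05 after adjustment. No neighbouring pair is therefore resolved by this test after adjustment. At the smallest p allowed, a pair could pass only if most of the 9 pairs reached it. The test thus could hardly pass single pairs, and it does not show that neighbours are equal.

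The libraries with the highest and lowest levels were shared by several of the 10 genes. For 3 of them the highest levels were in libraries 1, 5 and 6, those rich in atrial markers. Library 4 was the lowest for 5 genes and library 2 for 4. Library 4 was also the richest in red blood cell markers, of which 3 of 5 were tested, with a summed level of 12227 scaled FPKM against 471 and 1191 in the other double mutants and 113 to 488 in controls. The part of these markers in the levels was not tested.

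Downstream of AKT, 12 genes for AKT substrates and the mTORC1 branch were tested, 6 above 0 and 6 below, with a median of -0.0021. By limma 0 passed, also at an unadjusted p under 0.05, where 12.2% of all tested genes were. Gsk3b, the kinase that restrains glycogen synthesis until AKT inhibits it, measured 5.26 ± 0.935 against 3.99 ± 0.605 with overlap. Rps6kb1, which encodes the S6 kinase, measured 5.97 ± 0.312 against 5.09 ± 0.314, and Tsc2, a brake on mTORC1, 8.23 ± 0.905 against 6.96 ± 0.236, both lower without overlap (adjusted p = 0.54 for each).

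Known targets of FOXO factors, mostly from other tissues, numbered 20, of which 19 were tested. Their differences were above 0 for 7 and below for 12, with a median of -0.14, where 48.8% of all tested genes were above 0. By limma 0 passed, with 2 higher and 1 lower at an unadjusted p under 0.05, where 6.97% and 5.23% of all tested genes were. Genotypes did not overlap for 4 of the 19, against 19.2% of all tested genes. Bcl2l11, which encodes the cell death protein BIM, had 5.12, 2.69 and 5.12 FPKM in libraries 1, 2 and 3 and 7.70, 6.56 and 6.65 in libraries 4, 5 and 6. It was higher in all 3 double mutants (4.20 ± 1.45 and 7.14 ± 0.499, difference 0.68, adjusted p = 0.29). Klf15, a transcription factor of fasting metabolism, was also higher in all 3 (9.62 ± 1.92 and 13.2 ± 0.869, difference 0.43, adjusted p = 0.35). Gadd45a, a growth arrest gene, measured 8.36 ± 1.02 against 5.32 ± 2.04 with overlap (difference -0.61, adjusted p = 0.36). The members with the smallest p thus lay on both sides of 0.

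Genes listed as brakes on the pathway numbered 13, of which 10 were tested, 4 above 0 and 6 below. By limma 0 passed, also at an unadjusted p under 0.05, where 12.2% of all tested genes were. Pik3ip1, an inhibitor of PI3-kinase, measured 27.1 ± 8.92 in controls and 17.1 ± 3.04 in double mutants with overlap (difference -0.60, adjusted p = 0.41). Trib2, a pseudokinase, measured 3.35 ± 0.173 against 2.68 ± 0.183 without overlap (difference -0.24, adjusted p = 0.44). Whether Trib2 acts as a brake in the heart was not tested, so its lower level is not read as a weaker brake. Inpp5d, a lipid phosphatase found mostly in blood cells, measured 1.98 ± 0.528 against 2.73 ± 1.04.

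Of 9 genes for insulin-responsive glucose handling all were tested, 3 above 0 and 6 below, and by limma 0 passed. At an unadjusted p under 0.05 there was 1 higher, where 6.97% of all tested genes were higher. That gene was Vamp2, which encodes a protein of the vesicles that carry glucose transporters to the membrane (19.4 ± 1.46 and 24.4 ± 2.98 without overlap, difference 0.31, adjusted p = 0.41). Rrad, a small GTPase of muscle, measured 35.4 ± 4.11 against 23.7 ± 10.7 with overlap. Pfkfb1, a regulator of glycolysis, had 3.61, 1.02 and 2.13 FPKM in the 3 controls and 3.81 in library 5, and was listed at 0 in libraries 4 and 6.

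Over the pathway, 89 genes besides the 10 were listed and 74 tested, 27 above 0 and 47 below, with a median of -0.09 and 0 passing limma. Over all tested genes 48.8% were above 0, and the median was -0.0062. This lean of the listed genes below 0 was not tested. Of these 74, 6 (8.11%) were at an unadjusted p under 0.05, against 12.2% of all tested genes, and 15 (20.3%) were without overlap, against 19.2%. The lowest adjusted p among them was 0.29.

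**Figure D5:**
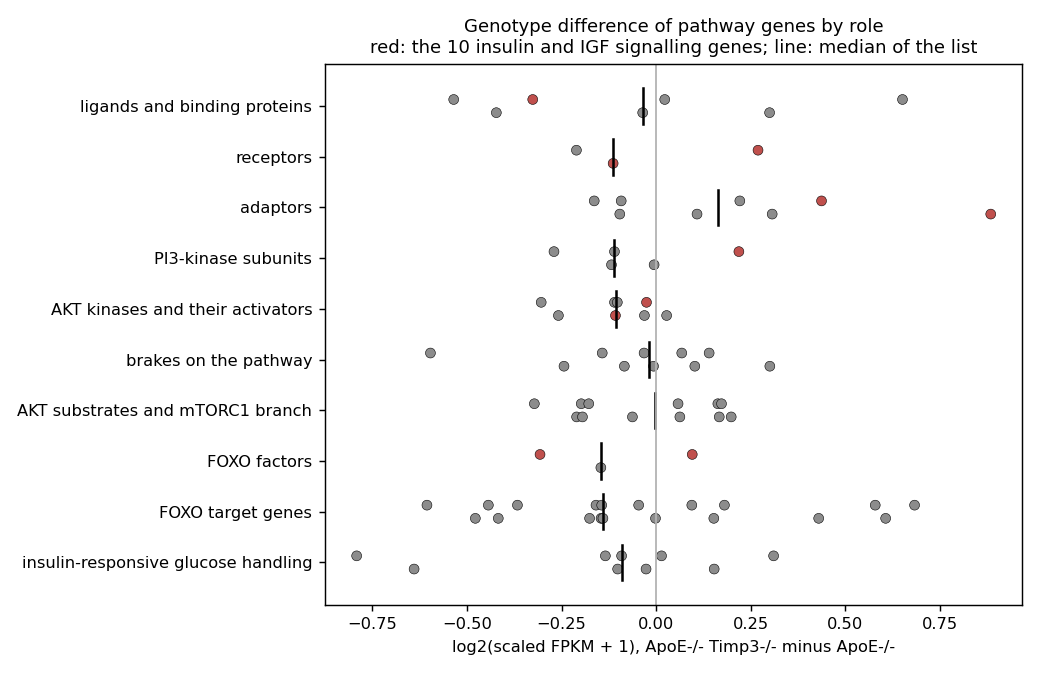
Genotype difference of each tested pathway gene (x axis, log2(scaled FPKM + 1), double mutant minus control) by its role (rows); the 10 genes described singly are red, the others grey, and a black line marks the median of each row. Row medians lie between -0.15 (FOXO factors) and 0.17 (adaptors), and Irs2 is the rightmost red point.

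Genes whose pattern over the 6 libraries was most like that of Irs2 were found by the root-mean-square distance of their centred log2 values. Ramp1, which encodes a partner of calcitonin-family receptors, was nearest (0.13), then Tnni1, the troponin I of slow muscle and the fetal heart (0.14), and Gm15542 (0.15). Ramp1 had 2.03, 1.06 and 1.51 FPKM in controls and 4.48, 3.65 and 3.14 in double mutants, and its adjusted p was 0.23. Since the search picks genes that differ by genotype as Irs2 does, their differences add no support to its own.

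Igf1 lies on the chromosome of Timp3 and begins 1.51 Mb beyond its end, and Foxo3 ends 43.8 Mb before it on the same chromosome. Within 5 Mb of Timp3, 57 other genes were tested, 24 above 0 and 33 below (48.8% of all tested genes were above 0), with a median of -0.04. Of these 8 (14.0%) were at an unadjusted p under 0.05 and 13 (22.8%) without overlap, against 12.2% and 19.2% of all tested genes, and by limma 0 passed. The smallest p belonged to ENSMUSG00000074856 (2.72 ± 0.329 and 5.39 ± 0.377, difference 0.78), 1190007I07Rik (4.28 ± 0.637 and 2.07 ± 0.384, difference -0.78) and ENSMUSG00000074859 (5.56 ± 0.815 and 10.2 ± 1.72, difference 0.76).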

How the data were processed

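RNA of 6 hearts was taken up in Trizol and sequenced from standard Illumina libraries, as the labels' protocols say. The authors deposited 1 transcript file per library with an FPKM and a coverage for each transcript, per the file attributes, each normalized within its library. Per the submitters' processing notes the tools were TopHat, Bowtie and Cufflinks and the build NCBIM37. Their versions, the read length and the use of strand were not given in the sources used here. Reads per gene are not in the files, which is why no count test was made and depth is given as aligned bases. A value of exactly 0 can be an estimate that failed.

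A gene's value is the sum of the deposited FPKM of its transcripts. Transcript IDs placed 82353 of 94670 reference transcripts, gene IDs of the files 5261 and exon overlap of at least 50% another 6235. Of 70603 assembled transcripts, 39170 (at least 300 nt long, with at least 50% overlap) were added to a gene, and 193 genes with a transcript absent from a file were left out. FPKM were scaled by the median of ratios (factors 0.897 to 1.17). Genes with a mean FPKM of at least 1 and a transcript of at least 300 nt were tested as log2(scaled FPKM + 1) with limma 3.58.1 (intensity trend, two-sided) in R 4.3.3; this scale understates changes of low genes. The fit was tested on simulated data. Overlaps used bedtools 2.31.1, and the rest Python 3.11.15. Sequences are from GENCODE M21 and RefSeq (GRCm38.p6); other coordinates are NCBIM37.

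The 10 genes, the pathway lists and the rule for named genes (the 10, Timp3, the 3 of each list and the 3 near Timp3 with the smallest limma p, and the 3 nearest in pattern to the member with the smallest p) were chosen with earlier results of these data known. Ins1, Ins2, Akt2-ps and Gm9747 fall outside that rule and were picked with their values in view, and a gene that the rule takes is not reported here. Alternatives changed 1 choice at a time: scaling, pseudocount, filter, transcripts summed, library weights and each library left out. The labels call the controls littermates and say no more of how the mice relate; a p-value here reflects only how far these libraries spread, which may be technical.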

Additional observations from a re-analysis of the deposited data

How the results depend on the processing

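Under every alternative run, 0 of the 10 genes and 0 of their transcripts passed limma, and Irs2, Foxo1, Insr, Irs1, Igf1, Pik3r1 and Akt1 kept the sign of their difference. The sign turned for 3 genes and 2 ratios. Igf1r was 0.15 with libraries weighted by their spread. Akt2 was 0.44 with reference transcripts only, 0.50 with the strongest transcript only, 0.020 as locus density on either strand and 0.077 with the atrial marker mean as a covariate, the last 2 chosen after seeing the data. Foxo3 was -0.091 with reference transcripts only and -0.10 with the strongest transcript only. The ratio of Irs1 to Irs2 was 0.45 with reference transcripts only, where Irs2 is listed at 0 in 5 libraries. The cause of the other turns was not tested. With reference transcripts only Insr was 0.57, Pik3r1 0.48 and Irs1 0.027, and the ratios Insr to Igf1r (0.52), Foxo1 to Foxo3 (-0.23) and Akt1 to Akt2 (-0.49) all overlapped between genotypes.

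Leaving out 1 library at a time gave ranges of 0.13 to 0.46 for Insr, 0.07 to 0.81 for Irs1, 0.76 to 1.07 for Irs2, -0.50 to -0.03 for Igf1, -0.32 to 0.19 for Igf1r, 0.03 to 0.44 for Pik3r1, -0.17 to -0.01 for Akt1, -0.15 to 0.052 for Akt2, -0.37 to -0.23 for Foxo1 and -0.0035 to 0.21 for Foxo3. For the ratios it gave 0.27 to 0.47 (Insr to Igf1r), -1.0 to -0.021 (Irs1 to Irs2), -0.19 to 0.14 (Akt1 to Akt2) and -0.50 to -0.29 (Foxo1 to Foxo3).

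The number of all tested genes that passed, 5, was 3 with a pseudocount of 0.1, 11 without a filter on low values, 102 with weighted libraries, 3 as locus density and 1 with the atrial covariate. It lay between 3 and 11 with 1 library left out, at 3 without library 1 and 11 without library 2 or library 4. Irs2 and Igf1r could not be tested with reference transcripts only or the strongest transcript only, since their mean FPKM was then under 1. No paired analysis was possible because the groups share no library number. With 3 libraries per genotype and no reads per gene, precision is limited; among the 10 genes Irs1 had the largest standard error (0.36) and Foxo1 one of 0.13.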
